A study of Mus musculus with 16 samples.

Results

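The data described here are the expression profiles of 4 control kidney samples from C57BL/6 mouse embryos at embryonic day 17.5, chosen as the arrays whose titles name a wild-type control kidney pair, and read in the Cy5 channel that carried each sample. They are 4 of the 16 arrays of a series whose other 12 arrays hold kidneys with homozygous conditional Ezh2 loss from Six2-positive nephron progenitor cells, with Ezh1 wild-type, heterozygous knockout or homozygous knockout in the germline. Each array measured 56605 different probes in total RNA, and the Cy3 channel of every array carried RNA of the first control. The array of kidney 1 therefore measured the same RNA in both dyes, and the Cy3 channel repeated that RNA on the other arrays. Each sample is a kidney pair in the titles, and is called kidney 1 to 4 here after its number. The labels call them biological replicates and do not give sex or litter, and no genotypes are compared.

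The embryonic kidney grows by repeated interaction between nephron progenitors, which form a cap around the tips of the branching ureteric bud, and the bud itself. Progenitors leave the cap, form vesicles and S-shaped bodies, and give rise to podocytes, proximal tubule, loop of Henle and distal tubule, while stroma, endothelium and macrophages lie between them. Before birth all of these stages are present together, so whole-kidney RNA averages self-renewing progenitors with nephrons that already carry transporters.

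A level is the log2 of the processed Cy5 signal minus the 75th percentile of its array, so a level of 0 is the signal at that percentile and each unit is a 2-fold step. The brightest probe stands for its gene. A gene was called detected where that probe was well above background, by the scanner software's own flag, on all 4 arrays, and silent where no probe of it was so on any. The remaining genes were called mixed. Of 22911 named genes, 13415 (58.6%) were detected, 6821 (29.8%) were silent and 2675 (11.7%) were mixed. With the software's laxer flag, for a positive and significant signal, 3170 genes were silent. The levels of silent genes are those of the background and have no order.

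The 4 arrays were not of equal brightness. Relative to background, the Cy5 signal at the 75th percentile was 7.69, 4.16, 8.06 and 6.21 in kidneys 1 to 4, and 60.7%, 53.1%, 58.2% and 56.4% of probes were well above background. Kidney 2 was the dimmest by both measures. Of 944 genes that were well above background on 3 arrays, 662 were missed on kidney 2 and 185 on kidney 3. Over detected genes the levels of any 2 kidneys correlated with r between 0.955 and 0.992 across genes, which are not independent replicates, and the repeats of kidney 1 RNA in Cy3 with r between 0.996 and 0.997.

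Markers of kidney cells were detected more often than markers of other organs. Of 189 marker genes in 14 lists for cells of the kidney and its blood and nerves, 129 (68.3%) were detected, against 35 of 114 (30.7%) in 13 lists for other organs. Both shares stand beside 58.6% over all genes. Nephron progenitor markers were detected in 12 of 14 cases, early nephron markers in 11 of 12, podocyte markers in 12 of 15 and proximal tubule markers in 19 of 24. Collecting duct markers were detected in 10 of 18 cases, with 7 mixed, and urothelial markers in 3 of 8.

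**Figure D1:**
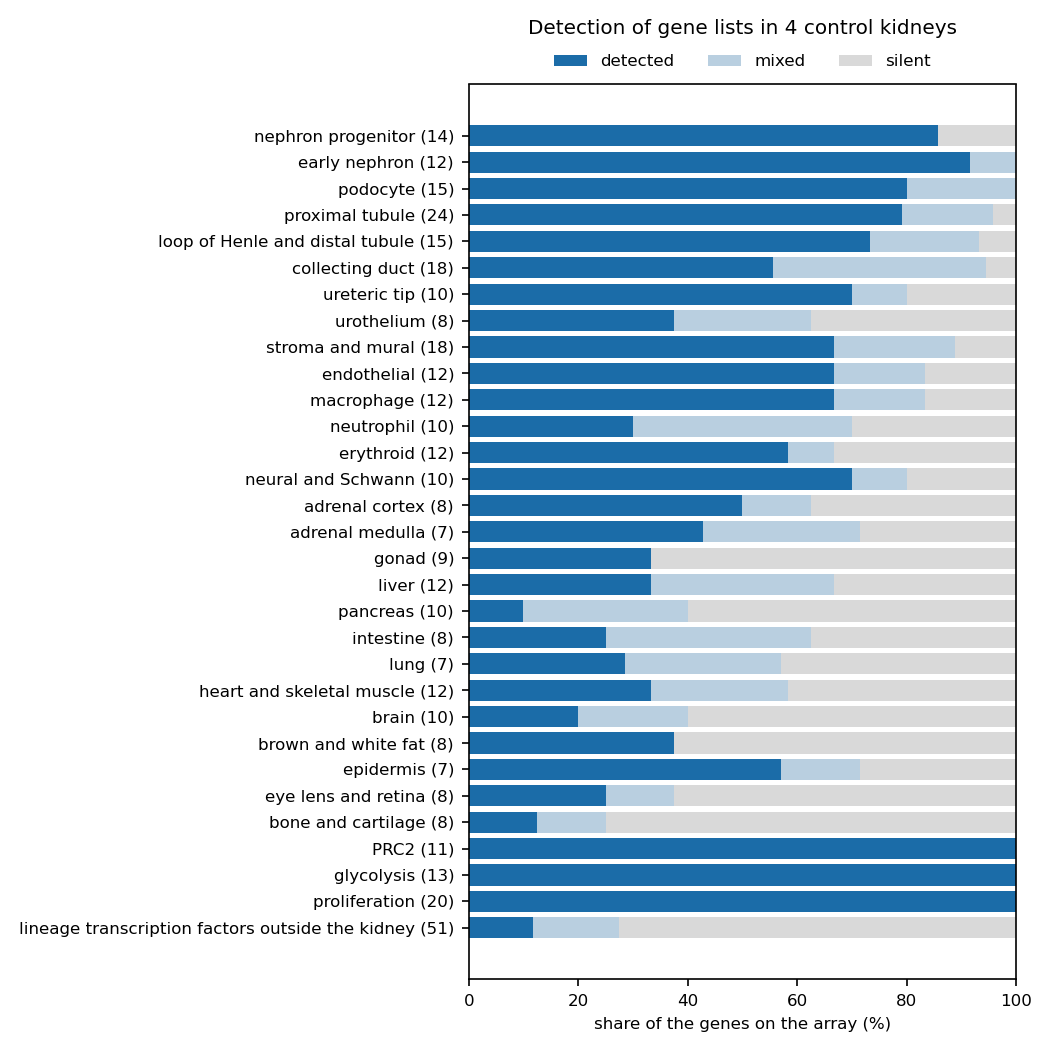
Share of the genes of each list (in %, with the number on the array in brackets) that were detected on all 4 control arrays, silent on all 4, or mixed. The lists of kidney cells stand at the top, with 91.7% of the early nephron list detected, those of other organs below, with 10.0% of the pancreas list, and the transcription factors of lineages other than kidney, with 11.8%, at the bottom.

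Some genes that define kidney cells were not measured above background. Ret in the ureteric tip, the glucose transporter Slc5a1 and the vasopressin receptor Avpr2 were silent on all 4 arrays. The slit diaphragm gene Nphs1 was well above background on 2 arrays. Podxl, another podocyte gene, was above background on kidney 1 alone. These are statements about single probes, whose position in the transcript was not used here.

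Among other organs, 6 of 10 pancreas genes, 6 of 10 brain genes and 6 of 8 bone and cartilage genes were silent. Liver genes were not all silent, with 4 of 12 detected. Afp, the fetal serum protein, had levels of 2.80, 2.97, 0.21 and 2.57 in kidneys 1 to 4, and the protease inhibitor gene Serpina1a had 1.00, 0.90, -1.96 and 1.59. Both were lowest in kidney 3, while albumin was above background on kidney 1 alone. The alpha-globin gene Hba-a1 was bright on every array, at 7.39, 7.09, 7.77 and 7.08. Some genes known for other tissues were bright on 1 probe with no further probe on the array, among them the ovarian factor Foxl2 at 4.65 to 5.51 and the bone hormone Fgf23 at 5.50 to 6.29.

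Transcription factors that specify other lineages were mostly not measured. Of 51 such genes 37 were silent, 8 mixed and 6 detected, the neural factors Neurod1, Olig2 and Sox2, the muscle factors Myod1 and Myf5 and the gut factors Cdx2 and Pdx1 being among the silent ones. The highest of the 6 detected was Nkx6-1, at -1.45, -1.12, -1.95 and -1.49. Kidney patterning factors were detected in 21 of 24 cases. All 11 genes of PRC2, the complex that deposits trimethylation on histone H3 lysine 27, were detected, among them the catalytic subunits Ezh2 at 2.94, 3.40, 3.10 and 3.05 and Ezh1 at 3.57, 3.13, 3.84 and 3.32. All 20 genes of the proliferation list and all 13 of glycolysis were detected too. Over families named by symbol, 66 of 1080 olfactory receptors (6.11%), 14 of 258 vomeronasal receptors (5.43%) and 30 of 101 cytochromes P450 (29.7%) were detected. For 377 zinc finger genes named Zfp the share was 89.9% and for 79 ribosomal protein genes 96.2%, and among Nduf genes, whose products serve complex I, 36 of 36 were detected.

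The Hox genes are homeobox factors laid out in 4 clusters whose order mirrors the body axis. Of 39 measured, 32 were detected and 7 were silent, and none was mixed. The silent ones were Hoxb1 and Hoxd1 at one end of their clusters and Hoxa13, Hoxb13, Hoxc12, Hoxc13 and Hoxd13 at the other. All 4 genes of paralog group 13 were silent. Their neighbours Hoxa11 (3.10, 2.76, 3.71 and 2.75), Hoxc11 (2.07, 2.73, 2.73 and 1.90) and Hoxd12 (1.54, 1.14, 2.38 and 1.27) were well above background on every array. Hoxa11 and Hoxd11 are known to be required for kidney growth, and Hoxd11 had levels of 0.17, 0.45, 0.81 and 0.59.

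**Figure D2:**
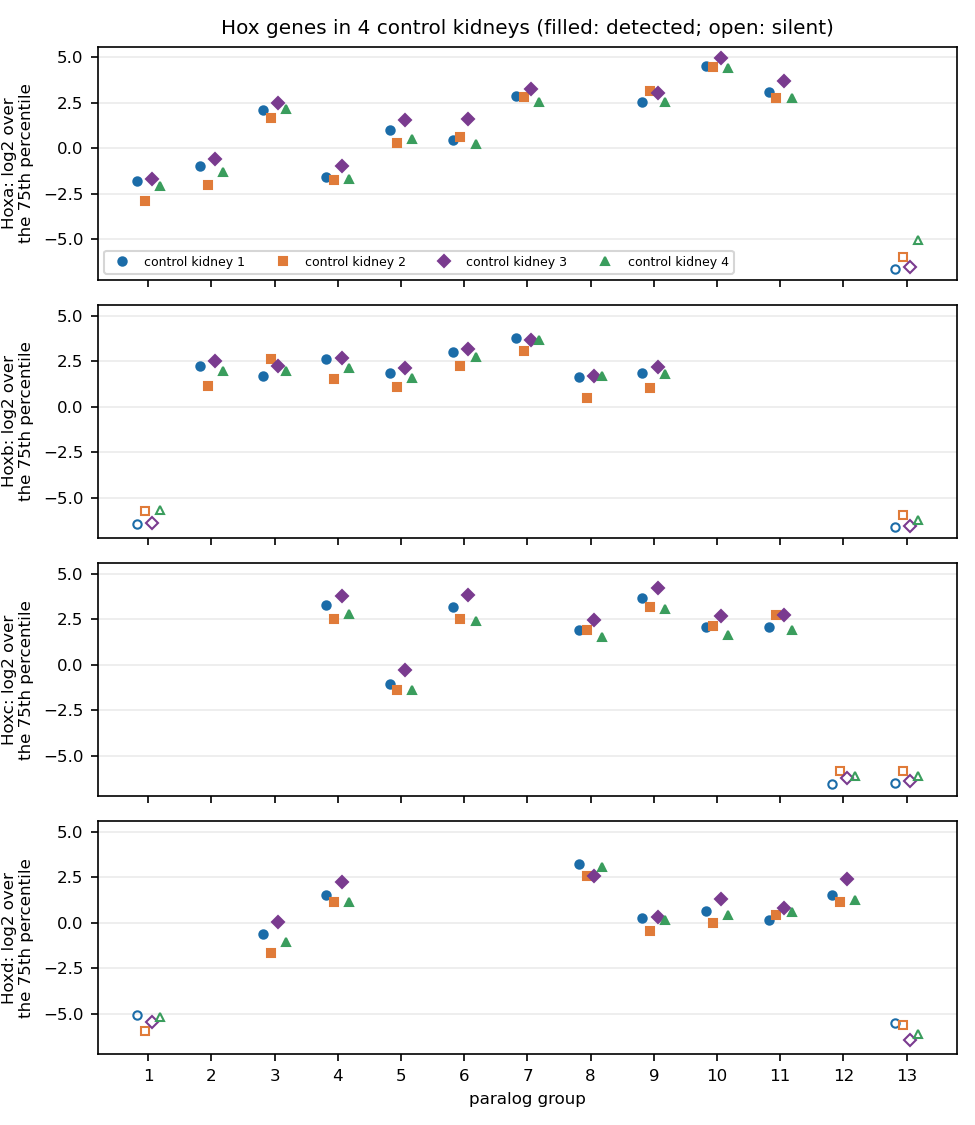
Level of each Hox gene (log2 over the 75th percentile of the array) by paralog group in the 4 clusters, with 1 point per control kidney, filled for detected and open for silent genes. Genes of group 13 lie at background in all 4 clusters, and kidney 3 is the highest in 27 of the 32 detected genes.

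The probes with the highest signal need care. The 20 brightest had mean levels from 9.06 to 9.51, which is 532 to 727 times the 75th percentile of the array. They belonged to the rRNA gene Rn28s1, the small RNA gene Rn4.5s, 8 histone H2A genes (H2ac1, H2ac10, H2ac11, H2ac12, H2ac15, H2ac20, H2ac23 and H2aj) and to Kctd14, Glrx2, Elk1, Slc10a1, Ttc38, Exosc2, Ndor1, Pbld1, Med16 and 2610028H24Rik. The H2A genes are near-identical copies whose probes may share transcripts. All 8 of the 20 genes with a further probe had that probe more than 3 log2 units dimmer. Slc10a1, the bile acid transporter of the liver, had 9.12, 9.98, 9.14 and 9.49 on its brightest probe, while its other probe averaged -5.65 and was not well above background on any array. The same held for Pbld1, whose other probe averaged -6.28.

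A brightness rank is thus a property of the probe as well as of the transcript. Of 7899 genes with more than 1 probe, 2526 (32.0%) had their 2 brightest probes within 1 log2 unit, and 28.4% had them over 3 units apart. Restricting the ranking to the 2526 genes with agreeing probes, a choice made after seeing the values, removed all 20. Of the 20 brightest 17 were then ribosomal protein genes, and Milr1 and Ubb were among the others. Rps24 had levels of 8.63, 8.98, 8.72 and 8.81 with a further probe at 8.43, and Rps29 had 8.25, 8.41, 8.30 and 8.41 with one at 8.27. The imprinted growth genes H19, at 7.80, 8.05, 8.05 and 7.69, and Igf2, at 4.15, 3.81, 4.64 and 4.13, were also detected, as was Gapdh at 7.15, 7.25, 7.23 and 7.18.

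Promoter sequence, which the detection flag does not use, differed between the classes. RefSeq promoters (GRCm38.p6, 250 bases before to 50 after the first listed start) were matched by symbol for 18077 of 22911 genes (78.9%). A promoter was called CpG-rich where CpG dinucleotides reached more than 0.6 of the number expected from its C and G content. This held for 69.1% of 10685 detected genes (95% Wilson interval 68.2% to 70.0%, over genes and not over animals), 28.2% of 2036 mixed genes and 13.5% of 5356 silent genes (12.6% to 14.4%). TATAAA on either strand within the 250 bases lay in 7.19% of detected, 20.6% of silent and 11.9% of all promoters.

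**Figure D3:**
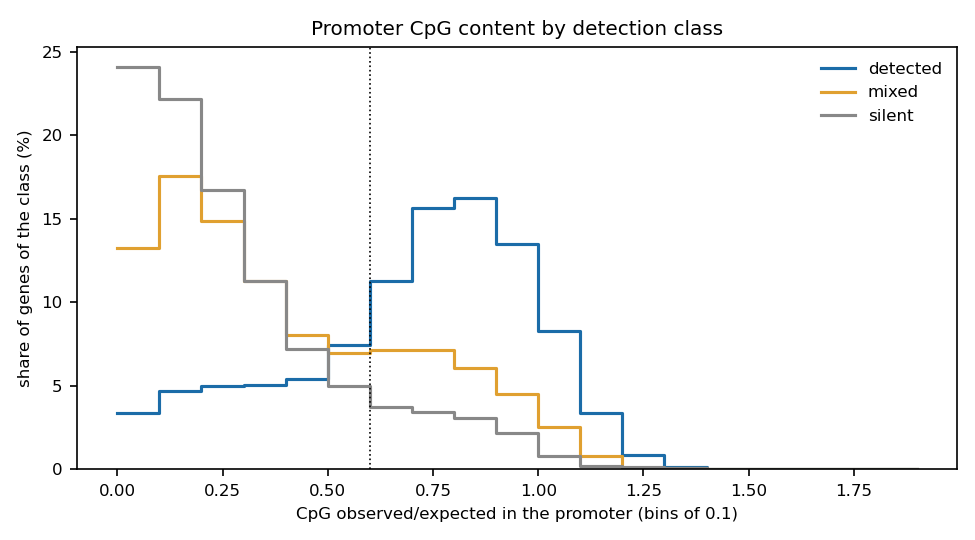
Share of genes (in %) by CpG observed over expected in the promoter, in bins of 0.1, for detected, mixed and silent genes, with a dotted line at 0.6. Detected genes gather to the right of the line (69.1%) and silent genes to its left, where 13.5% lie to the right.

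Silent lineage transcription factors did not share the promoters of the other silent genes. Of the 27 with a promoter, 18 (66.7%, interval 47.8% to 81.4%) were CpG-rich, close to the share in detected genes, against 3 of 917 olfactory receptors (0.327%). The share was the same over the whole list, silent or not, at 24 of 36, so it was not particular to the silent members. Of 4 silent Hox genes with a promoter 3 were CpG-rich, as were 7 of 18 detected Hox genes with one. The 250 bases before the start are shown with CpG in capitals, so that CpG-rich promoters of detected and of silent genes can be set beside a CpG-poor one. Six2 (chr17:85688255-85688504, minus strand, 26 CpG) marks nephron progenitors and Tmed3 (chr9:89705044-89705293, minus strand, 19 CpG), a secretory pathway gene, had the steadiest level of all. Hoxd13 (chr2:74667975-74668224, plus strand, 31 CpG) and Neurod1 (chr2:79456637-79456886, minus strand, 22 CpG) were silent with CpG-rich promoters. Olfr95 (chr17:37211852-37212101, minus strand, 0 CpG) is an olfactory receptor gene with no CpG in this window, and unlike most of its family it was detected.
Six2: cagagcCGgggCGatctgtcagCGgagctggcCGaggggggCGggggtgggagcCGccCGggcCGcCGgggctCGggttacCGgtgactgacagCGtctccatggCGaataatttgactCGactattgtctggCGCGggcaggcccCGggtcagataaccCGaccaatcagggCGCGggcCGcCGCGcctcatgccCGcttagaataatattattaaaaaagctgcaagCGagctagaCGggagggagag
Tmed3: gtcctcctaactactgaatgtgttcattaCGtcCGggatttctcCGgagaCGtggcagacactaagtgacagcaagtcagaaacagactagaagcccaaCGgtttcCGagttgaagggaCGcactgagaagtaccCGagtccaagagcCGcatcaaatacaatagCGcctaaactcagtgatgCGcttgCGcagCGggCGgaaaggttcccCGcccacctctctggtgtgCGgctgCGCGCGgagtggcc
Hoxd13: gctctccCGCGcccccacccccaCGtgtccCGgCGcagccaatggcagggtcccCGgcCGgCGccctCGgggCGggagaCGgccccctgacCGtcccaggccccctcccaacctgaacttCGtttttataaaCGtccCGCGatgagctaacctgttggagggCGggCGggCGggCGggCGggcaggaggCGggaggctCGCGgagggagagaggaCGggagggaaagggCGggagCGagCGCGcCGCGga
Neurod1: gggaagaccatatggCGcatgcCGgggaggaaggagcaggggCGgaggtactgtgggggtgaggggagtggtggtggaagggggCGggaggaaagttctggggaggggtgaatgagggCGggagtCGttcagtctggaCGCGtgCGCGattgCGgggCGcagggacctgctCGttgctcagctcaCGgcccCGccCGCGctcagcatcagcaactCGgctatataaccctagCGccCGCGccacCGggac
Olfr95: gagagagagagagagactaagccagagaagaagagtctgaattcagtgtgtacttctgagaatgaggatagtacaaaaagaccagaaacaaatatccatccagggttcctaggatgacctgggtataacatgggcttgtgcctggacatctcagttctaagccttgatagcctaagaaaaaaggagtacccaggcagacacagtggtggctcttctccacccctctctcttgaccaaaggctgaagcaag

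The kidneys differed from one another far more than repeats of 1 RNA did. Over 13413 detected genes with a value on every array the median SD of the level between the 4 kidneys was 0.252, against 0.071 for the Cy3 repeats of kidney 1 RNA on the same arrays. Within the genotypes of the 12 other arrays the median SD was 0.189. A range of at least 2-fold between kidneys was found for 2134 genes. Without kidney 2 it was found for 1167 of 14075 genes detected on the remaining arrays, and without kidney 3 for 990 of 13600. A range over fewer kidneys cannot be larger, so these drops do not measure the part of 1 kidney. Other processing, from median signals with normexp, loess and Aquantile normalisation, lowered the 2134 to 922 for the Cy5 level and 862 for log2(Cy5/Cy3). An F test of the 3 differences of kidneys 2, 3 and 4 from kidney 1, in a limma model of both channels of all 16 arrays with the Cy3 repeats as technical error, called 6983 of 16059 genes (43.5%) at an adjusted p of 0.05. Among genes detected on 4 arrays 46.1% were called. Without kidney 2, the dimmest array, the same test called 2783 genes, and without kidney 3 it called 4664. Each kidney was labelled in Cy5 on 1 array, so a kidney and its own labelling cannot be told apart, and the test compares these RNAs and not conditions.

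Kidneys 1 and 2 lay on slide 1 and kidneys 3 and 4 on slide 2. Between the slides 0 of 16074 genes passed limma's test on log2(Cy5/Cy3) at an adjusted p of 0.05. At an unadjusted p under 0.05 there were 275. The design was 2 against 2, with the differences between kidneys of a slide as its error. A slide effect shared by both dyes cancels in the ratio. In Cy5 a slide and its kidneys cannot be told apart, so no conclusion on the slides is drawn from this test.

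Kidney 3 had the most genes that were low in 1 kidney alone. A detected gene was counted as apart where 1 kidney was at least 2-fold below, or above, each of the other kidneys. Kidney 3 was low in this sense for 426 of 13413 genes (3.18%), or 261 with normexp, loess and Aquantile normalisation, and high for 11 (0.082%). Kidney 2 was low for 81 (0.604%) and high for 87 (0.649%). Kidney 4 was low for 5 (0.0373%) and high for 29 (0.216%), and kidney 1 was low for 6 (0.0447%) and high for 8 (0.0596%). Of the 300 genes with the largest SD, 235 had kidney 3 as the farthest sample, in 233 cases on the low side. For the 426 genes the Cy3 level of the same arrays had a median SD of 0.070, while Cy3 says nothing of the labelling of kidney 3 in Cy5. The same genes varied widely elsewhere, with a median percentile of 97.6 for the within-genotype SD over the 12 other arrays. In whole kidneys, fewer cells of a type and less RNA per cell cannot be told apart.

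Proximal tubule genes were the clearest case, and these cells reabsorb most of the filtered solute. All 19 detected members of the list were at least 2-fold lower in kidney 3 than in each other kidney, against 3.18% of all detected genes. Of all 24 members on the array 23 were lowest in kidney 3, and the 4 members above background on 3 arrays were all missed on kidney 3. All 23 that were tested passed the F test, beside 43.5% of all genes tested. The median of the 19 was 1.55, 2.06, -1.04 and 0.85 in kidneys 1 to 4. The same median in Cy3 lay between 1.43 and 1.56 on the 4 arrays. Over the 12 other arrays of the series, all of kidneys with Ezh2 loss, it ran from -1.97 to 1.89 in Cy5. Values as low as that of kidney 3 thus occurred in the series, but among the controls in kidney 3 alone. Arrays of other genotypes cannot show how common such a value is in control kidneys.

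The endocytic receptor Lrp2 had levels of 3.87, 4.09, 1.34 and 3.50 (limma F test, adjusted p = 1.05e-13) and its partner Cubn 1.70, 2.06, -0.82 and 1.57. The phosphate transporter Slc34a1 had 2.42, 2.73, 0.15 and 1.98, and the organic anion transporter Slc22a6 had 1.82, 2.72, -0.01 and 1.44. Kidney 3 lay below the other 3 kidneys for each of these genes. Pck1, which starts gluconeogenesis from oxaloacetate, had -0.19, 0.56, -3.49 and -1.04. Kap, the kidney androgen-regulated protein gene, had 0.12, 0.55, -4.03 and -1.57. Kidney 4 was also below kidneys 1 and 2 for these genes. Hnf4a, the nuclear receptor of proximal tubule differentiation, had 2.93, 3.19, 0.23 and 3.15. Deviations of kidney 3 from the mean of the others had a median of -2.47 over the 19 genes, and -2.01 on the log2(Cy5/Cy3) scale.

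**Figure D4:**
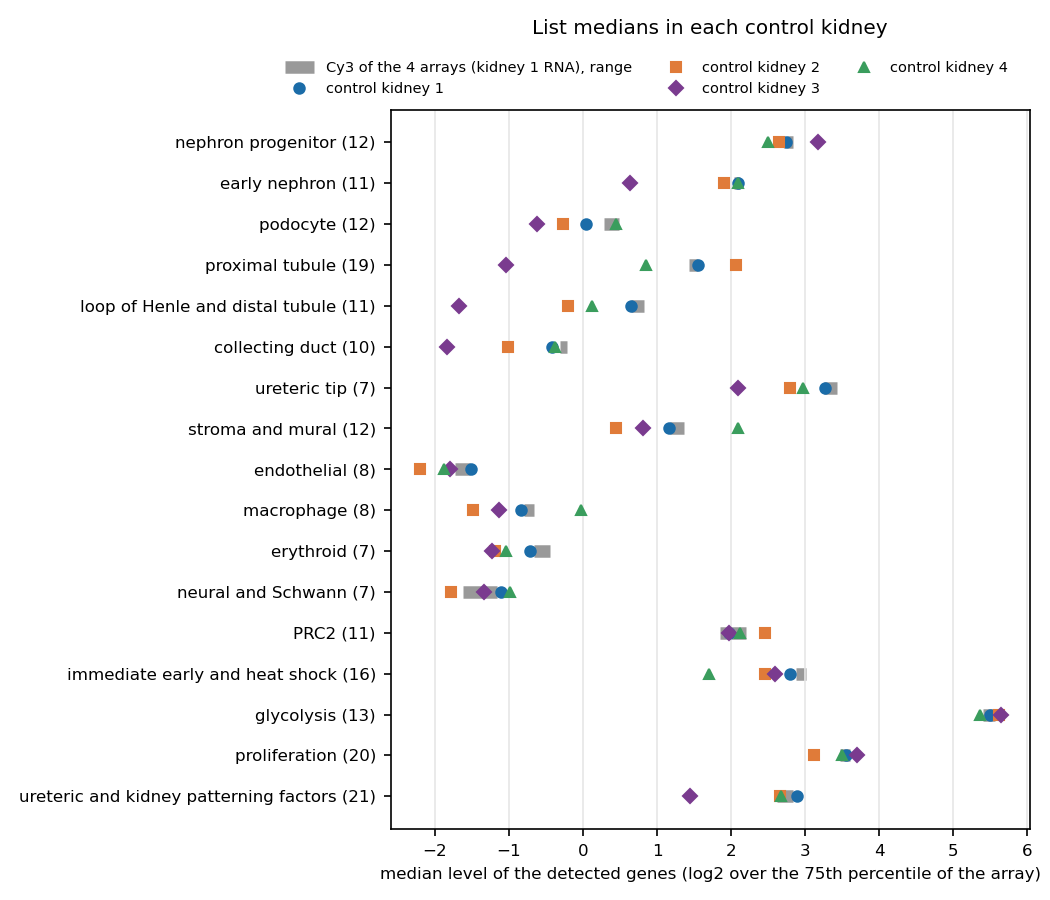
Median level of the detected genes of each list (log2 over the 75th percentile of the array, number of genes in brackets) in each control kidney, with the range of the same median in Cy3, where the 4 arrays carried 1 RNA, as a grey bar. Kidney 3 is lowest for the tubule lists, with -1.04 for proximal tubule, and highest for nephron progenitors, with 3.17.

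Other tubule segments were low in kidney 3 for part of their genes. In the loop of Henle and distal tubule list 7 of 11 detected members were at least 2-fold lower there. Umod, the gene of uromodulin, had levels of 0.47, 0.98, -1.98 and -0.37, and the salt transporter Slc12a1 had 1.21, 1.53, -2.20 and 0.12 (limma F test, adjusted p = 7.39e-16). The potassium channel Kcnj1 had 1.40, 1.61, -1.67 and 0.45. The patterning factors Irx1, at 2.45, 1.03, -0.66 and 2.46, and Irx2, at -0.27, -2.01, -3.94 and -0.27, were lowest in kidney 3 and next lowest in kidney 2. The remaining 4 members, Pvalb, Ppp1r1b, Wnk4 and Tmem52b, were not at least 2-fold apart.

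In the collecting duct list 5 of 10 detected members were at least 2-fold lower in kidney 3. The transcription factor Gata3 had 1.64, 0.32, -1.01 and 1.62, the keratin Krt8 had 2.65, 2.61, -0.03 and 2.55, and the intercalated cell factor Foxi1 had -0.95, -2.05, -3.46 and -1.44. Aqp2, the water channel of principal cells, had -1.68, -1.42, -2.16 and -1.82 (adjusted p = 0.238 by limma's F test), and the sodium channel subunit Scnn1a had 0.71, 0.86, 0.92 and 1.12 (adjusted p = 0.219). For these 2 genes kidney 3 was not apart from the others.

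In the early nephron list 4 of 11 detected members were at least 2-fold lower in kidney 3. Wnt4, the inducer of the epithelial transition, had 5.05, 5.14, 5.20 and 4.84 (limma F test, adjusted p = 0.15), and Pax8 had 2.88, 2.82, 2.98 and 2.92 (adjusted p = 0.994). The Notch ligand Jag1 had 2.10, 1.91, 0.64 and 2.10, and Dll1, another Notch ligand, had 0.21, -0.22, -2.54 and 0.36. Lhx1 had 4.29, 5.12, 3.31 and 4.53. Podocyte genes did not follow one pattern. Of 12 detected members 2 were at least 2-fold low in kidney 3, and Wt1 had 5.64, 5.41, 5.93 and 5.37.

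Nephron progenitor genes were higher in kidney 3. It was the highest of the 4 kidneys for 11 of 12 detected members. Of the 12, 10 passed the F test, beside 46.1% of detected genes. Six2, the factor that keeps progenitors in self-renewal, had levels of 6.30, 6.28, 6.99 and 5.78 (limma F test, adjusted p = 0.000136). Cited1 had 4.58, 4.56, 5.10 and 4.24, and Gdnf, the growth factor that draws out the ureteric bud, had 2.27, 1.86, 2.93 and 1.93. Crym had 5.85, 5.58, 6.43 and 5.65. The deviation of kidney 3 from the mean of the others had a median of 0.73 over the list and 0.12 over all detected genes. The share of all detected genes for which a given kidney was highest or lowest was not counted, for this or any other list. Eya1 was the exception, with kidney 2 highest at 5.64. No member was at least 2-fold above each other kidney.

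Hox genes were also higher in kidney 3, by a median of 0.65 (0.12 over all detected genes), and it was the highest kidney for 27 of 32 detected genes. The count was 23 on the log2(Cy5/Cy3) scale, and the share over all detected genes was not counted. Hoxa10 had 4.51, 4.50, 4.99 and 4.42, and Hoxc9 had 3.65, 3.18, 4.19 and 3.03. No Hox gene was at least 2-fold low in kidney 3. Families named by symbol differed in that count. Of 247 detected Slc transporter genes 31 (12.6%) were at least 2-fold low in kidney 3, as were 6 of 30 Cyp genes, 4 of 5 Ugt genes and 5 of 13 Cldn genes, whose products seal tight junctions. Of 339 Zfp genes and 27 collagen genes 0 were, beside 3.18% of all detected genes.

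Promoters of the 426 genes low in kidney 3 were CpG-rich in 38.5% of 322 cases (interval 33.4% to 43.9%), against 69.1% of detected genes. Of all members of the proximal tubule list, detected or not, 19 had a promoter and 2 of these were CpG-rich.

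Stromal genes were highest in kidney 4. The stroma and mural list had medians of 1.16, 0.45, 0.82 and 2.09 in kidneys 1 to 4, and kidney 4 was the highest for 8 of 12 detected members. Its deviation from the mean of the others had a median of 1.02 over the list and -0.005 over all detected genes. Col3a1 had levels of 2.12, 0.17, 0.88 and 3.13 (limma F test, adjusted p = 3.78e-15), and Col1a1 had 2.31, 1.29, 1.30 and 3.26. The receptor gene Pdgfra had -0.18, -2.55, -1.74 and 0.79, Penk had 2.45, 0.76, 1.21 and 3.28, and the proteoglycan gene Dcn had 1.37, 0.20, 0.75 and 2.44. Kidney 4 and then kidney 1 were highest for each of these, and kidney 2 was lowest. Foxd1, which marks the cortical stroma around the progenitor caps, went another way, at 0.65, -0.36, 1.19 and 0.50. Macrophage genes were highest in kidney 4 for 6 of 8 detected members, among them C1qc at -0.91, -1.43, -1.29 and 0.08. The median deviation of kidney 4 was 0.90 over this list. The share of all detected genes highest in kidney 4 was not counted.

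Kidney 2 was lowest for proliferation genes, in 18 of 20 cases. The shares of all detected genes lowest in kidney 2 or highest in kidney 3 were not counted. Of the 20, 11 passed the F test, near the 46.1% of detected genes that did. Top2a, which untangles DNA in dividing cells, had 3.55, 2.85, 3.65 and 3.39, and Rrm2 had 4.33, 3.71, 4.37 and 4.55. The median deviation of kidney 2 was -0.48 over the list and -0.19 over all detected genes. Kidney 3 was the highest for 17 of the 20, with a median deviation of 0.31 (0.12 over all detected genes). On the log2(Cy5/Cy3) scale it was the highest for 10 of the 20. Mki67 had 4.77, 4.73, 5.03 and 4.66 (limma F test, adjusted p = 0.134). Vegfa was high in kidney 2 alone, at 2.12, 3.21, 1.99 and 2.12. Kidney 2 was also the array with the weakest Cy5 signal, and the part of this in the differences was not tested.

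Immediate early genes, which are switched on within minutes of handling or stress, differed too. Of 16 detected genes of the list, with heat shock genes, 14 passed the F test, beside 46.1% of detected genes. Kidney 1 was the highest for 10 and kidney 4 the lowest for 11, and the shares over all detected genes were not counted. The median deviation of kidney 1 was 0.56 over the list and 0.07 over all detected genes. For kidney 4 these medians were -0.50 and -0.005. Fos had 4.87, 4.23, 4.30 and 3.28, and Fosb had 3.24, 2.51, 2.66 and 1.56. Egr1 had 5.08, 4.59, 5.00 and 4.09. Jun was highest in kidney 2, at 6.08, 6.68, 5.55 and 5.87.

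Of the 25 genes with the largest SD 24 are described, grouped by the 2-fold rule above, which uses Cy5 levels alone. Kidney 2 was at least 2-fold above each other kidney, without kidney 3 being 2-fold below each, for 7 genes (Lamb3, Mogat1, Olfr95, Cfap20dc, Runx3, Slc25a48 and Scgb2b15). Kidney 3 alone was 2-fold below each other kidney for 8 genes (Kap, Fut9, Tfap2b, Sim2, Me3, Ugt2b34, Vcam1 and Tspan8). Both held for 7 genes (Trim46, Cdh13, Krt2, D17H6S53E, Acsm1, Gatm and Sult1d1), and neither for Xist and S100a6.

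The microtubule-associated gene Trim46 had the widest range, with levels of 3.81, 6.24, -2.29 and 0.77, while its other probe had 0.15, -0.64, 0.58 and -0.21 and so did not follow. The laminin chain gene Lamb3 had -0.90, 3.01, -3.18 and -3.16, and its other probe was not well above background on any array. The same held for the other probes of Mogat1, Runx3 and Scgb2b15, while that of Cfap20dc was lowest in kidney 2. Olfr95 and Slc25a48 had no further probe, so no gene of this group had its high level in kidney 2 repeated by a further probe. The cadherin Cdh13 had 0.22, 3.55, -2.85 and -1.46, and its other probe had a far smaller range, at -1.45, -1.22, -1.57 and -1.57. Fut9, a fucosyltransferase, had -0.42, 0.14, -3.91 and -0.16, and a further probe had -0.64, -0.91, -4.33 and -0.20. Sult1d1, a sulfotransferase, had 0.78, 2.14, -2.18 and 0.91, with 0.40, 1.40, -2.28 and 0.56 on its other probe. For Sult1d1 and for Fut9, which has 3 probes, the 2 brightest probes were thus lowest in kidney 3. Gatm, which makes guanidinoacetate for creatine, had 0.11, 1.48, -2.89 and -0.88, and Tfap2b, a factor of distal nephron development, had 0.82, -0.70, -3.24 and 0.72. The second brightest probes of Gatm, Tfap2b and Vcam1 were lowest in kidney 3 as well. Those of Acsm1, well above background on only 2 arrays, and of Sim2 were not.

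The Cy3 repeats of 1 RNA had an SD of 0.13 to 0.54 for the 7 genes high in kidney 2, 0.04 to 0.12 for the 8 low in kidney 3 and 0.05 to 0.37 for the 7 that were both, beside a median of 0.071 over detected genes. Of all 87 genes at least 2-fold high in kidney 2, 58 lay above the 90th percentile of Cy3 SD, as did 29 of the 426 low in kidney 3. The part of this technical spread in the differences was not tested.

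**Figure D5:**
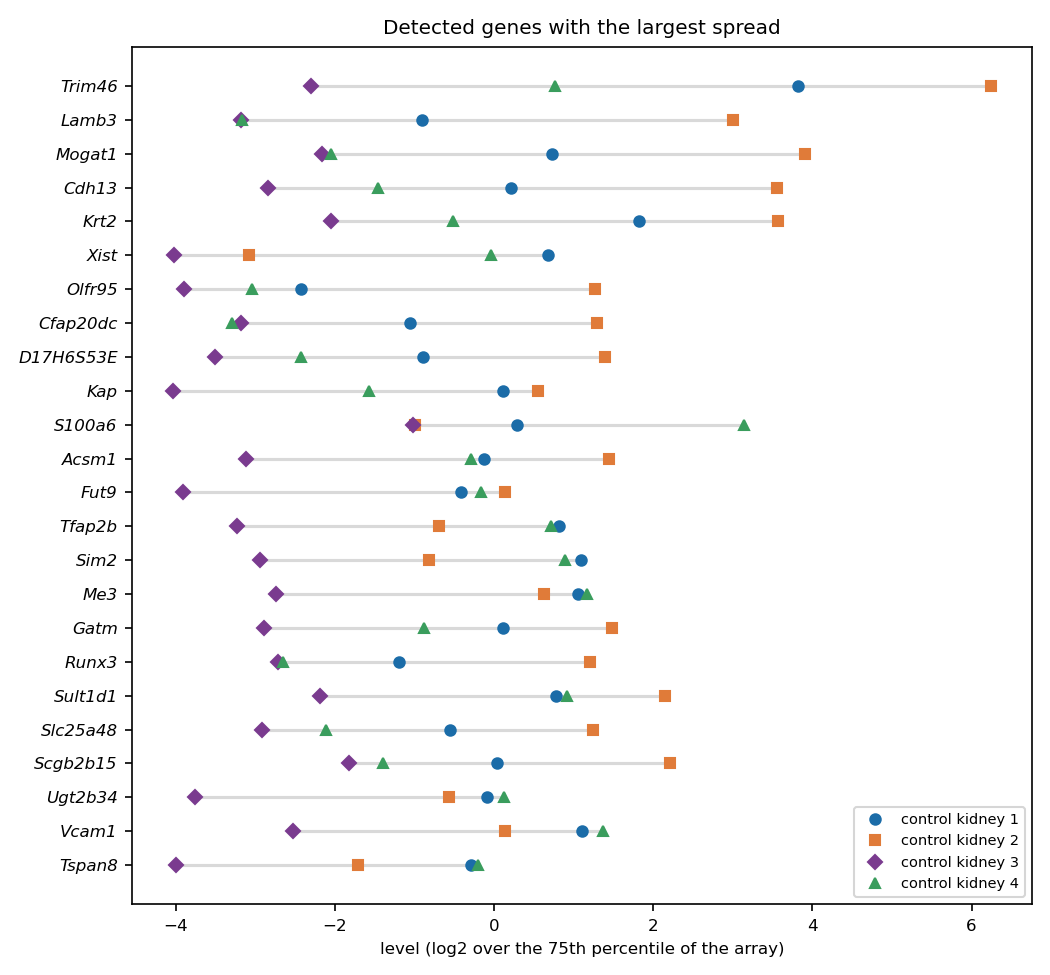
Levels (log2 over the 75th percentile of the array) of 24 of the 25 detected genes with the largest SD between the 4 control kidneys, ordered by SD from the top, with 1 point per kidney and a grey line over the range. Kidney 2 is at the right end for genes such as Trim46 (6.24), kidney 3 at the left end for genes such as Fut9 (-3.91), and S100a6 is high in kidney 4 (3.14).

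Xist and S100a6 made up the rest. Xist, the RNA that coats the inactive X chromosome, had 0.68, -3.08, -4.02 and -0.03, so it was high in kidneys 1 and 4. Y-linked genes were lowest in kidney 1, with Uty at -2.42, 0.40, 0.03 and -0.85, Kdm5d at -2.41, -0.78, -0.27 and -1.35 and Eif2s3y at -1.11, -0.16, 0.93 and -0.09. Ddx3y was at -5.01 in kidney 1, not well above background, and at -2.02, -2.13 and -2.91 in the others. Kidney 4 was thus high in Xist and above kidney 1 in all 4 of these Y-linked genes. The labels do not say whether a kidney pair came from 1 embryo. The calcium-binding S100a6 had 0.28, -0.99, -1.02 and 3.14.

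At the other end lay genes that hardly moved. The 10 steadiest among detected genes above the median level were Tmed3, Map2k5, Sdhb, Chchd6, Mrpl24, Rpl21, Gm1673, Ddrgk1, Tmem258 and Letm1. Tmed3 had 4.09, 4.08, 4.09 and 4.08, and Sdhb, a subunit of succinate dehydrogenase, had 5.83, 5.82, 5.82 and 5.84. Some serve mitochondria, such as Chchd6 of the inner membrane and Mrpl24 of the mitochondrial ribosome. They were chosen for their small SD, and over the 12 other arrays the within-genotype SD was 0.07 for Tmed3, 0.11 for Sdhb and 0.26 for Letm1. Of the 300 steadiest genes above the median level, 79.3% of those with a promoter were CpG-rich. The share was 29.6% for the 300 genes with the largest SD, which were drawn from detected genes of any level. Over all detected genes it was 69.1%. The part of the level in this difference was not tested.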

How the data were processed

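Total RNA of 4 control kidneys was measured in Cy5 on Agilent arrays. Per the file headers and the submitters' processing notes, the deposited intensity values came from Agilent Feature Extraction 10.7.3.1, which subtracted background and normalised dyes within each array. The deposited flags of detection come from the same software.

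Outlier spots (95 to 113 an array) and control spots were left out and spots of 1 probe averaged. Probes carry accessions, and RefSeq (GRCm38.p6) gave 32994 of 56605 probes 1 symbol, none several, and left 23611 unnamed. The F test used median signals with normexp (offset 50), loess and Aquantile, in limma 3.58.1 (R 4.3.3) with a level per sample and dye, Benjamini-Hochberg adjusted. The intraspot correlation (0.36) was estimated with genotypes as the design, because a level per sample leaves it inestimable. The code was also run on simulated data, with independent errors at the fitted spread and no labelling effect. Such data cannot show how labelling affected the calls. p-values measure the spread of repeated hybridisations of 1 RNA.

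Named were the 20 brightest genes, the 25 with the largest and 10 with the smallest SD, and members of 43 gene lists. Among list members, the first listed and those past the F test were preferred. Some genes are not reported here. Members and lists were chosen with earlier results of these data known. Signal over background and the number of arrays limit the precision. Promoters came from RefSeq. Alternatives changed the flag, probe, scaling, filter, dye term and arrays.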

Additional observations from a re-analysis of the deposited data

Results flagged for a closer look

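Of 126 named detected genes, 28 list medians and 2 array measures, 12 had 1 kidney whose gap to the nearest other kidney took up more than 0.829 of the whole range, and in 9 of them that kidney was kidney 3 at the low end. Chance flags about 1 in 20 such groups, and genes of 1 kidney are not independent. The early nephron median is the level of Jag1 itself, so these 2 are 1 observation. Kidney 3 was lowest with a gap of 0.871 of the range for the early nephron median, 0.849 for the median of kidney patterning factors, 0.966 for Krt8, 0.915 for Hnf4a, 0.871 for Jag1, 0.862 for Fut9, 0.862 for Me3, 0.854 for Afp and 0.829 for Cubn. The patterning factors did not fall as a group, with kidney 3 lowest for 10 of 21 detected members. Their deviations in kidney 3 had a median of -0.21 and ran from -3.09 to 0.93. Hoxa10 stood out by a high kidney 3 (0.853), Vegfa by a high kidney 2 (0.892), and the median of Fgf ligands by a low kidney 4 (0.862). Of the 23611 probes without a symbol, which no comparison used, 9106 (38.6%) were well above background on all 4 control arrays.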

How the results depend on the processing

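The number of detected genes stayed within 1.5 times of 13415 under all 9 alternatives, from 13425 with any probe of the gene to 16077 with 1 array enough, and from 13429 to 14077 without 1 kidney. Silent genes fell to 3170 with the flag for a positive and significant signal, and ran from 6939 to 7314 without 1 kidney. Of the 20 brightest genes 18 to 20 remained under other scalings or without 1 kidney, and 0 among genes with agreeing probes. The 2134 genes with a 2-fold range became 862 on the log2(Cy5/Cy3) scale, 922 with normexp, loess and Aquantile, 4263 with genes detected on 1 array and 6445 with no filter, and 990 (without kidney 3) to 1983 without 1 kidney, with 1167 without kidney 2. Genes at least 2-fold low in kidney 3 numbered 261 with normexp, 731 with genes detected on 1 array and 810 with no filter, and 468 to 576 without 1 other kidney. The median deviation of all 24 proximal tubule genes in kidney 3, -2.39, was -1.87 with normexp and -1.85 on the ratio scale, and lay between -2.72 and -2.19 without 1 other kidney. F test calls ran from 2783 (without kidney 2) to 7096 without 1 kidney and within 1.5 times of 6983 under the other 9 settings, with 10143 for the software's processed signals and 9881 with no dye term. With a CpG cut-off of 0.75, 50.1% of detected and 7.94% of silent genes were CpG-rich. Counts of 2-fold differences without 1 kidney were over genes detected on the remaining arrays. The causes were not tested. The agreeing-probe ranking, the fits with no dye term or no intraspot correlation and the alternatives for kidney 3 were chosen after seeing the data. No paired analysis was possible because only 1 group was analysed.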
